A study of Homo sapiens with 72 samples.

Results

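The messenger RNAs of 10 splicing factor genes were followed: SRSF1, SRSF2, SRSF3, SRSF4, SRSF5, SRSF6, SRSF7, SRSF11, TRA2A and TRA2B. They were picked by gene symbol from the raw count table, in which they were 10 of 44659 gene names, and none was missing. All 10 passed the filter on low counts in every comparison. The RNA came from the cytoplasm of the established human melanoma line A375, grown in DMEM with 10% fetal bovine serum, and was read with QuantSeq, which counts reads at the 3′ end of polyadenylated RNA. In the siCTU2 groups the cells carried a pool of 2 siRNAs against CTU2 for 42 h, and in the siGL2 groups a control siRNA. CTU2 is a subunit of the enzyme that thiolates the wobble uridine of the tRNAs that read AAA, GAA and CAA codons. In the mQ groups the cells spent 18 h in medium without glutamine, and in the pQ groups in medium with it. Each condition was followed for 0, 3 and 5 h under 25 µM triptolide, which blocks transcription (T arm), or under triptolide with 100 µg/ml cycloheximide, which blocks translation (TCHX arm), with 3 libraries in each of the 24 groups. All cells, the controls and the 0 h cells included, had therefore received triptolide, and the 0 h cells were harvested directly after its addition. The design asks how the level of an mRNA before the block, and its loss after the block with and without translation, differ between siCTU2 and siGL2 cells and between mQ and pQ cells.

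SR proteins bind RNA through an RNA recognition motif and contact other splicing factors through a domain rich in arginine and serine. They bind enhancer sequences in exons and help the spliceosome to find splice sites, and several of them also take part in the export of mRNA from the nucleus. SRSF1, SRSF3 and SRSF7 are well known for moving between nucleus and cytoplasm, SRSF2 acts mainly in the nucleus, and TRA2A and TRA2B are SR-like proteins related to the Transformer-2 protein of flies. Most of these genes regulate themselves: when the protein is abundant, a poison exon with an early stop codon, or a spliced terminal region, is joined into the mRNA, and the transcript is degraded by nonsense-mediated decay. That decay needs translation, so transcripts of this kind are generally more stable when translation is blocked.

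The poison exons are shown because the counts cannot separate them from the productive transcript. In the GENCODE annotation of GRCh38 (release 44), all 10 genes had transcripts labelled as targets of nonsense-mediated decay, 24 in all. An exon that overlapped no exon of the reference (MANE Select) transcript and held the stop codon was found in 7 of the 10 genes. For SRSF1, SRSF2 and SRSF5 the annotated decay transcripts had no such exon. The exons were 62 to 456 bases long. Of the 24 decay transcripts, 17 shared the last exon of the reference transcript, where the 3′ reads are counted, so that a gene's count adds up productive and decay-targeted forms. Each line gives the start of the exon up to and including the stop codon that closes the reading frame, 5′ to 3′ on the strand of the gene, in lower case with the stop codon in capitals.
SRSF3, internal exon chr6:36599821-36600276 on the plus strand, bases 36599821 to 36599854: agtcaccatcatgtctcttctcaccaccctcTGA
SRSF4, internal exon chr1:29165890-29166064 on the minus strand, bases 29166009 to 29166064: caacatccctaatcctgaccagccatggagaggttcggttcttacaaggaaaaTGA
SRSF6, internal exon chr20:43459153-43459420 on the plus strand, bases 43459153 to 43459304: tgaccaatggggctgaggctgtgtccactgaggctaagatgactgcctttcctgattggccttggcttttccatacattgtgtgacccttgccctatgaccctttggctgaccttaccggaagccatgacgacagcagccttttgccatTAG
SRSF7, internal exon chr2:38748898-38749346 on the minus strand, bases 38749319 to 38749346: gtttcttcgtttgagtcagtcgcctTGA
SRSF11, internal exon chr1:70230557-70230618 on the plus strand, bases 70230557 to 70230615: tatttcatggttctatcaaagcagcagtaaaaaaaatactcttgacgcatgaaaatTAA
TRA2A, internal exon chr7:23522132-23522432 on the minus strand, bases 23522289 to 23522432: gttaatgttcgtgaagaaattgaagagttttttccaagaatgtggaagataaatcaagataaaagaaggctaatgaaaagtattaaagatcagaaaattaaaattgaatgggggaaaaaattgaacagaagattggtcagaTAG
TRA2B, internal exon chr3:185931577-185931852 on the minus strand, bases 185931772 to 185931852: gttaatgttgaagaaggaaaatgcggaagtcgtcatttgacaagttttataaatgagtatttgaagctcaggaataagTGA
The stop codon was TGA in SRSF3, SRSF4, SRSF7 and TRA2B, TAG in SRSF6 and TRA2A, and TAA in SRSF11. The TRA2A and TRA2B exons opened with the same letters, gttaatgtt. In SRSF11 almost the whole exon lay before the stop codon, while in SRSF3 and SRSF7 the stop codon came within the first bases of a much longer exon.

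In the same annotation the whole genes lie at chr17:58000919-58007346 (SRSF1, minus strand), chr17:76734115-76737333 (SRSF2, minus), chr6:36594353-36605600 (SRSF3, plus), chr1:29147743-29181900 (SRSF4, minus) and chr14:69726900-69772005 (SRSF5, plus). The others lie at chr20:43457893-43466046 (SRSF6, plus), chr2:38743599-38751494 (SRSF7, minus), chr1:70205682-70253052 (SRSF11, plus), chr7:23504780-23532041 (TRA2A, minus) and chr3:185914558-185938103 (TRA2B, minus). The coding sequences were rich in arginine and serine codons, the trait for which SR proteins are named, so that this share came with the choice of genes. Arginine and serine codons made up 26.9% (SRSF11) to 45.7% (SRSF2) of codons, against a median of 13.4% over 19005 genes. The arginine codon AGA ranged from 0.905% in SRSF2, below the median of 0.988%, to 9.24% in SRSF7, and was above the 97.7th percentile of genes in the 9 members other than SRSF2. The codons AAA, GAA and CAA together, which are read by the tRNAs that CTU2 serves, ranged from 2.26% (SRSF2) to 11.8% (SRSF11), around a median of 5.66% over genes. In this respect the members were spread over the range of all genes, from the 17.1th to the 87.5th percentile.

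Libraries held 5987692 to 15534331 counts, of which the 10 members together took 0.177% to 0.345%. No pair of replicates agreed within sampling noise, with a chi-square per degree of freedom of 4.49 to 115 over 72 pairs. The labels number the replicates but do not say whether they were separate cultures, so p-values measure the spread between these libraries, which may be technical. At 0 h in the T arm the summed level of the melanocyte marker list was 859 to 1411 CPM (a gene's counts scaled to the same total in every library), with 5 of its 8 genes over 10 CPM in every library. The leukocyte list summed to 0 to 0.571 CPM, the fibroblast list to 2.35 to 8.94 CPM and the keratinocyte list to 99.7 to 297 CPM, with 2 of its 4 genes at 0. Of the 72 libraries, 3 of replicate 3 stood apart, since they held counts for more genes (19896 to 20364) than the other 69 (15507 to 17495). These were pQ TCHX 0 h, mQ T 5 h and a library with the label siCTU2 TCHX 5 h, in which CTU2 stood at 10.4 CPM. In the mQ T 5 h library JUN, a short-lived mRNA named here after its values were seen, stood at 25.9 CPM, against at most 1.18 CPM in the other mQ T 5 h libraries and at least 15.5 CPM in the mQ T 0 h libraries. CTU2 was at most 2.95 CPM in the other 17 siCTU2 libraries and at least 13.01 CPM in the 54 libraries of the other conditions. Whether these libraries were mixed or mislabelled was not tested, and their values are given under their labels.

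The level of the members before decay was first compared between siCTU2 and siGL2 cells at 0 h in the T arm. SRSF4, SRSF2 and SRSF5 were lower in siCTU2 cells and no member was higher, with the largest fall in SRSF4. With edgeR's quasi-likelihood test and Benjamini-Hochberg adjustment over all genes, 3 of 10 members were called lower, against 18.2% of the 12292 genes tested, and 0 higher, against 17.8%. Lower calls were thus not rare among all genes either. The members' median log2 difference was −0.14, against 0.01 over all genes. In bulk RNA, fewer cells of a kind and less RNA per cell cannot be told apart.

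SRSF4, an SR protein with a long arginine-serine domain, stood at 101, 115 and 101 CPM in siCTU2 cells and at 127, 144 and 133 CPM in siGL2 cells. The groups did not overlap, and the log2 difference was −0.35 (SE 0.09, edgeR adjusted p = 0.0032). SRSF2, also known as SC35 and a marker of nuclear speckles, stood at 379, 371 and 373 CPM in siCTU2 cells and at 427, 480.3 and 409 CPM in siGL2 cells. All 3 siCTU2 libraries lay below the siGL2 libraries, and the log2 difference was −0.23 (SE 0.07, edgeR adjusted p = 0.015). SRSF5 stood at 119.8, 138 and 129.6 CPM in siCTU2 cells and at 151, 151 and 149 CPM in siGL2 cells, again without overlap, with a log2 difference of −0.22 (SE 0.08, edgeR adjusted p = 0.0342).

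SRSF7, a zinc-knuckle SR protein, did not overlap between the groups either (380.0, 381 and 363 CPM against 427, 405 and 399 CPM), but its log2 difference of −0.13 was not called (edgeR adjusted p = 0.112). The other members differed by −0.16 (SRSF3, edgeR adjusted p = 0.0696), −0.15 (SRSF6), −0.06 (SRSF11), 0.04 (TRA2B), 0.11 (SRSF1) and 0.17 (TRA2A) on the log2 scale, none of them called. CPM without overlap and lower in siCTU2 cells was seen in 4 of 10 members, against 23.3% of all genes. The nuclear RNA MALAT1 took 0.376% to 0.569% of counts in these siCTU2 libraries and 0.277% to 0.415% in the siGL2 libraries, and the part of nuclear RNA in the members' differences was not tested.

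The TCHX libraries at 0 h gave a separate set of the same comparison. In them SRSF2 (−0.51) and SRSF4 (−0.34) were called lower again and SRSF1 (−0.23) was called lower. SRSF5 was not called there and its difference had the opposite sign (0.15). Without siGL2 replicate 2, 1 member was called in the T arm, SRSF4, while SRSF2 differed by −0.16 and SRSF5 by −0.22. SRSF5 was also not called (−0.23 to −0.18) when siCTU2 replicate 1 or 3 or siGL2 replicate 1 or 3 was left out. The lower level of SRSF4 and SRSF2 was thus seen in both sets of libraries, and that of SRSF5 in the T libraries only, a contrast between the arms that was not tested.

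**Figure D1:**
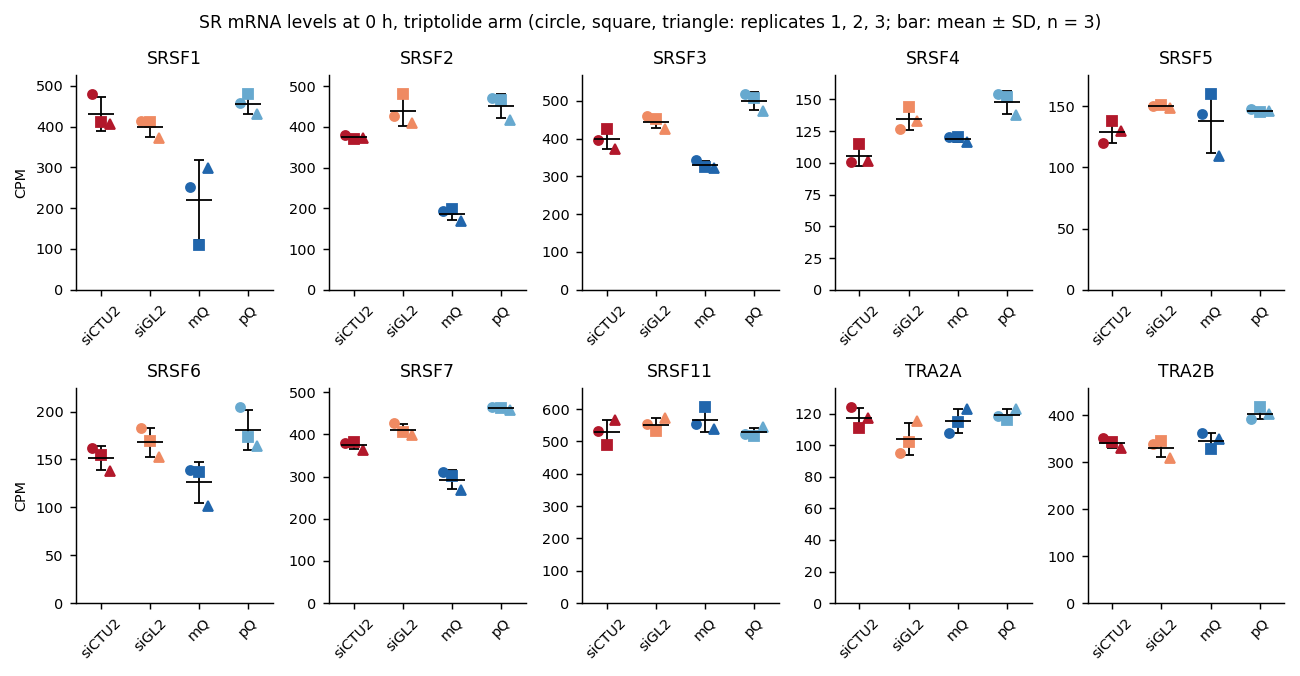
Level of the 10 members at 0 h in the T arm, in CPM on a linear axis from 0, with 1 panel per gene, 1 point per library and bars for the mean ± SD of the 3 libraries of each condition. SRSF1, SRSF2, SRSF3, SRSF6 and SRSF7 lie lower in mQ than in pQ cells, and SRSF11 and TRA2A overlap between mQ and pQ cells.

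The same comparison between cells without and with glutamine showed a larger change. SRSF1, SRSF2, SRSF3, SRSF6 and SRSF7 were lower in mQ than in pQ cells at 0 h, and no member was higher. With edgeR, 5 of 10 members were called lower, against 12.4% of the 12374 genes tested, and 0 higher, against 12.5%. The members' median log2 difference was −0.36, against 0.01 over all genes. CPM without overlap and lower in mQ cells was seen in 7 of 10 members, the 5 called together with SRSF4 and TRA2B, against 24.8% of all genes.

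SRSF2 had the largest difference. It stood at 194, 197.5 and 168 CPM in mQ cells and at 472, 465.5 and 417 CPM in pQ cells. The highest mQ library lay far under the lowest pQ library, and the log2 difference was −1.22 (SE 0.10, edgeR adjusted p = 2.0e-05). SRSF7 stood at 309.6, 300.1 and 268.5 CPM against 464, 463 and 459 CPM, with a log2 difference of −0.60 (SE 0.10, edgeR adjusted p = 0.0012). SRSF3, whose coding sequence of 164 codons is the shortest of the 10, stood at 342, 326 and 323 CPM against 518, 509 and 474 CPM, with a log2 difference of −0.54 (SE 0.09, edgeR adjusted p = 0.0018).

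For SRSF1, the classical factor known as ASF/SF2, the call rested on an uneven group. It stood at 252, 109.6 and 299 CPM in mQ cells and at 457, 479.6 and 431 CPM in pQ cells, so that the lowest library, mQ replicate 2, lay well under the other mQ libraries. The log2 difference was −1.0 (SE 0.26, edgeR adjusted p = 0.0158), with DESeq2 it was not called (adjusted p = 0.0649), and without mQ replicate 2 it was −0.67. SRSF6 stood at 139, 137 and 102 CPM against 204, 174 and 164 CPM, with a log2 difference of −0.47 (SE 0.14, edgeR adjusted p = 0.0274). Without pQ replicate 1 or without pQ replicate 2, SRSF1 (−1.001 and −0.96) and SRSF6 (−0.37 and −0.50) were not called and 3 members remained, and SRSF6 (−0.34) was not called without mQ replicate 3.

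The other 5 members were not called. SRSF4 (120.4, 120.7 and 116 CPM against 154, 152 and 138 CPM) and TRA2B (361, 328 and 348 CPM against 391, 417 and 403 CPM) lay lower in each mQ library than in any pQ library, with log2 differences of −0.26 (edgeR adjusted p = 0.0786) and −0.17. SRSF5, SRSF11 and TRA2A overlapped between mQ and pQ cells, with log2 differences of −0.03, 0.15 and 0.00. SRSF11 is thought to act in the recognition of 3′ splice sites.

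In the TCHX libraries at 0 h, SRSF2 (−0.84, edgeR adjusted p = 0.0259) and SRSF6 (−0.60) were called lower, while SRSF1 (−0.08), SRSF3 (−0.35) and SRSF7 (−0.34) were not called. Among them was pQ replicate 3, one of the libraries with counts for more genes, in which SRSF1 stood at 219 CPM against 481 and 439.9 CPM in the other pQ libraries, and SRSF2 at 279.5 CPM against 453 and 484 CPM. Without it, an alternative chosen after seeing the data, the same 5 members as in the T arm were called lower (edgeR): SRSF1 (−0.35), SRSF2 (−1.04), SRSF3 (−0.43), SRSF6 (−0.59) and SRSF7 (−0.47). MALAT1 took 0.466% to 0.635% of counts in the mQ libraries of the T arm and 0.181% to 0.286% in the pQ libraries, with no overlap, and the part of nuclear RNA in the members' fall was not tested.

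Other genes of the splicing machinery were read beside the members at 0 h. In siCTU2 against siGL2 cells, SRSF9 (log2 difference −0.27) was the 1 gene called lower of 3 other SR proteins tested, and CLK3 (0.33) the 1 called of 6 kinases and importins of SR proteins. Of 11 SR-related proteins 3 were lower, with LUC7L (−0.52) and LUC7L3 (−0.43), both linked to the U1 particle, moving most. Among 18 hnRNP proteins and other splicing regulators 5 were higher, led by MBNL2 (0.94), and 4 lower. Among 10 core spliceosome genes 3 were lower, led by SNRPA (−0.28) and SF3A1 (−0.25), and among 10 nonsense-mediated decay factors 4 were higher and 4 lower, led by SMG5 (−1.18) and UPF3B (0.93). The other SR proteins, the SR-related proteins and the core spliceosome genes thus had lower calls and no higher ones, and the remaining lists had higher calls. Among all genes 18.2% were called lower and 17.8% higher. Whether these short lists differ from those shares was not tested.

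In mQ against pQ cells, 0 of the 3 other SR proteins were called (edgeR), with log2 differences from −0.26 to −0.20. Of the 6 kinases and importins 1 was higher and 2 lower, the latter being CLK3 (−0.50) and SRPK1 (−0.40), and of the 11 SR-related proteins LUC7L (−0.42) was lower. Of the 18 hnRNP proteins and regulators 1 was higher and 7 lower, led by HNRNPF (−0.98) and HNRNPDL (−0.73). Of the 10 core spliceosome genes 1 was higher, SNRPA (0.50), and 4 lower, led by SNRPE (−0.55), and of the 10 decay factors 4 were higher and 1 lower, with SMG9 (0.98) and SMG8 (−0.90) moving most. Among all genes 12.4% were called lower and 12.5% higher.

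The loss of the members after the transcription block was followed next, in normalised counts, which are counts scaled to a set of stable genes after the study's methods. All changes over time are relative to these genes, which were selected for a rising share of the library. Over the mean of 3 h and 5 h in the T arm, 10 of 10 members were called lower than at 0 h in siCTU2 cells (edgeR), and 8 of 10 in each of siGL2, mQ and pQ cells, where SRSF1 and SRSF2 were not called. Without the replicate 3 libraries at 5 h, an alternative chosen after seeing the data, 10, 10, 9 and 10 members were called lower, SRSF1 in mQ cells being the exception. Among all genes, 62.6%, 47.5%, 58.6% and 64.3% were called lower in siCTU2, siGL2, mQ and pQ cells. The members' median log2 changes were −0.89, −0.74, −0.80 and −0.87, against −0.71, −0.59, −0.66 and −0.71 over all genes. The fall of most members was thus shared with a large part of the transcriptome. Scaling by TMM, which centres the genes near 0, left 3, 2, 2 and 2 members called lower: SRSF4 and TRA2B in all 4 conditions and SRSF7 in siCTU2 cells. Of all genes called, 1.79% to 2.42% were higher with stable-gene scaling and 25.3% to 35.1% with TMM. Without replicate 2, 5 members were called in siGL2 cells (SRSF3, TRA2A and TRA2B lost) and 5 in mQ cells (SRSF3, SRSF5 and SRSF6 lost).

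SRSF4 and TRA2B fell most. SRSF4 went from 1395, 1495 and 1358 normalised counts at 0 h in siCTU2 cells to 692, 719 and 691 at 3 h and 328, 479 and 300.0 at 5 h. Its log2 change was −1.48 (siCTU2), −1.13 (siGL2), −1.16 (mQ) and −1.09 (pQ), and with TMM scaling −0.77, −0.52, −0.50 and −0.39. TRA2B, which promotes the inclusion of SMN exons among others, went from 4851, 4448 and 4416 normalised counts to 1976, 2299 and 2117 at 3 h and 1797, 2112 and 738 at 5 h in siCTU2 cells. Replicate 3 at 5 h lay far under the other 2 libraries, and the log2 change of TRA2B was −1.33, −1.07, −1.19 and −1.24 in the 4 conditions in the same order. At 3 h alone SRSF4 had changed by −1.01 and TRA2B by −1.10 in siCTU2 cells, against a median of −0.55 over all genes, so that the larger fall of both was present at the first time.

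SRSF5 fell least in siCTU2 cells, from 1657, 1789 and 1737 normalised counts at 0 h to 1380.0, 1330.0 and 1388 at 3 h and 1142, 958 and 1345 at 5 h. Its log2 change was −0.46, −0.54, −0.54 and −0.45 in the 4 conditions, and its sign turned under TMM scaling. SRSF3 and SRSF11 likewise changed sign under TMM scaling in at least 1 condition, and SRSF1 and SRSF2 did so in mQ cells, so that for these 5 genes a direction can be given only relative to the stable genes.

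**Figure D2:**
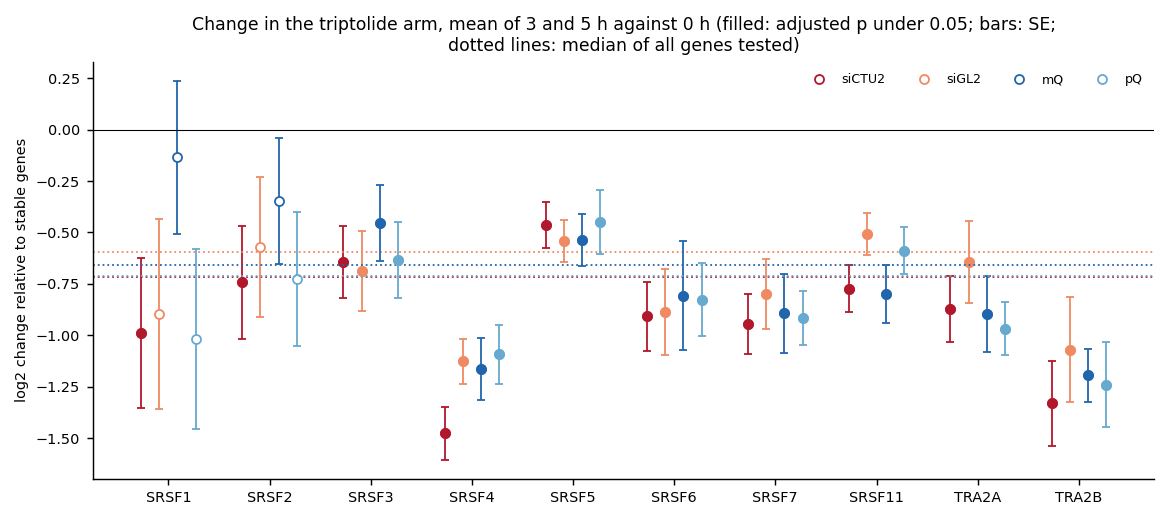
Log2 change of each member in the T arm, mean of 3 h and 5 h against 0 h, relative to stable genes, with error bars of 1 SE and 1 colour per condition. Filled points passed the adjusted threshold of 0.05, and the dotted lines mark the medians over all genes, between −0.71 and −0.59. SRSF4 and TRA2B lie lowest in siCTU2 cells at −1.48 and −1.33, and under TMM scaling SRSF1, SRSF2, SRSF3, SRSF5 and SRSF11 change sign in at least 1 condition.

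Blocking translation during the decay period was then read as the cycloheximide effect, the log2 difference of TCHX minus T averaged over 3 h and 5 h. SRSF4 was higher with cycloheximide in all 4 conditions, SRSF5 in siCTU2 and siGL2 cells, and the other 8 members in none. Members called higher were thus 2, 2, 1 and 1 of 10 in siCTU2, siGL2, mQ and pQ cells, against 21%, 12.1%, 5.12% and 12.3% of all genes (edgeR), shares that are near the background. The share of higher calls among all genes called was 99.2%, 95.6%, 97.7% and 96.4%, and with TMM scaling 76.8%, 79.8%, 84.3% and 86.2%. SRSF4 was among 445 of 12605 genes, 3.53%, called higher in all 4 conditions. The members' median effects were 0.26, 0.10, 0.05 and 0.15, against 0.22, 0.05, 0.05 and 0.06 over all genes.

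For SRSF4 the gap between the arms was visible in single libraries. In siCTU2 cells it stood at 692, 719 and 691 normalised counts in the T arm at 3 h and at 1159, 1159 and 1005 in the TCHX arm. At 5 h it stood at 328, 479 and 300.0 in the T arm and at 919, 806 and 823 in the TCHX arm. The arms did not overlap at either time, whereas at 0 h the TCHX libraries (1235, 1372 and 1262) lay slightly under or among the T libraries. The effect was 0.93 (SE 0.11, edgeR adjusted p = 6.7e-06).

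In siGL2 cells SRSF4 stood at 1024, 1045 and 824 normalised counts in the T arm and 1201, 1307 and 1062 in the TCHX arm at 3 h. At 5 h it stood at 657, 645 and 556 against 1043, 1116 and 1150.0. The gap was wider at 5 h than at 3 h, and the effect was 0.57 (SE 0.09, edgeR adjusted p = 0.00033). In mQ cells it stood at 685, 781 and 730.0 against 1119, 1112 and 1014 at 3 h, and at 483, 542 and 890.0 against 984, 962 and 1209 at 5 h, with an effect of 0.64 (SE 0.13, edgeR adjusted p = 0.0116). In pQ cells it stood at 1107, 1167 and 800.0 against 1156, 1314 and 1167 at 3 h, where the arms overlapped, and at 819, 848 and 858 against 1427, 1386 and 1435 at 5 h, where they did not, with an effect of 0.50 (SE 0.12, edgeR adjusted p = 0.009). The TCHX value was above the T value in 24 of 24 same-numbered pairs at 3 h and 5 h, as it was in 3.56% of 12605 genes. At 3 h alone the effect was called in siCTU2 cells only. In pQ cells it was 0.16 and not called when stable genes had to pass at both times, a scaling under which 34.0% of the calls among all genes were higher. Only 3 genes of the medium experiment passed that rule, against 82 in the main scaling. Without replicate 1 and without replicate 2, SRSF4 was not called in mQ (0.55 and 0.63) or pQ cells (0.53 and 0.53), with the size of the effect little changed. Without the libraries with counts for more genes it was called in siCTU2 (0.94), mQ (0.80) and pQ cells (0.50).

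As a share of the replicate's 0 h level, the mean of both arms, SRSF4 at 5 h was at 27.1% ± 5.56 (SD, n = 3) in the T arm and 63.0% ± 6.86 in the TCHX arm of siCTU2 cells. The same shares were 37.1% ± 3.16 and 66.1% ± 5.25 in siGL2 cells. They were 40.5% ± 12.8 and 66.97% ± 7.78 in mQ cells and 47.5% ± 8.52 and 79.9% ± 14.4 in pQ cells. In the TCHX arm SRSF4 was thus still below its 0 h level on average.

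SRSF5 showed a smaller gap. In siCTU2 cells it stood at 1142, 958 and 1345 normalised counts in the T arm and 1420.0, 1719 and 1558 in the TCHX arm at 5 h, and in siGL2 cells at 1116, 1216 and 1219 against 1491, 1851 and 1834. The arms did not overlap in either condition at 5 h, and the effects were 0.34 (SE 0.09, edgeR adjusted p = 0.0108) and 0.42 (SE 0.08, edgeR adjusted p = 0.0019). The last siCTU2 value of the TCHX arm came from the library with CTU2 at 10.4 CPM, and without it the siCTU2 effect was 0.34 (edgeR adjusted p = 0.0204). Both calls were lost when replicate 1 was left out (0.39 and 0.45), when replicate 2 was left out (0.23 and 0.39) and with TMM scaling (0.073 and 0.35). In mQ and pQ cells the effect was 0.19 in both and was not called (edgeR adjusted p = 0.334 and 0.468). At 5 h 65.2% ± 5.52 (SD, n = 3) of the 0 h level was left in the T arm of siGL2 cells and 95.1% ± 13.4 in the TCHX arm. SRSF5 was higher in TCHX in 23 of 24 pairs, and 10.9% of genes reached at least 23.

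For the other members the count of pairs with the higher value in TCHX was 22 for SRSF6, 20 for SRSF7, 20 for TRA2B, 18 for SRSF11, 17 for SRSF3, 17 for TRA2A, 16 for SRSF1 and 15 for SRSF2. How many of all genes reached these counts was not determined. The median cycloheximide effect over all genes was itself positive in every condition, so these counts are not read as an effect particular to these members. Of the 7 genes with an internal poison exon in the annotation, SRSF4 was the 1 called with cycloheximide. SRSF5, the second gene called, had no such exon but had 1 annotated decay transcript, which shared the last exon of the reference transcript. Whether calls and annotated exons go together was not tested. Without the replicate 3 libraries at 5 h, SRSF6 was also called in siGL2 (0.32) and mQ cells (0.46) and TRA2B in mQ cells (0.34), and the members called were 2, 3, 3 and 1. Among all genes 2622, 2335, 3345 and 1783 were then called higher, against 2858, 1597, 688 and 1640 with these libraries.

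**Figure D3:**
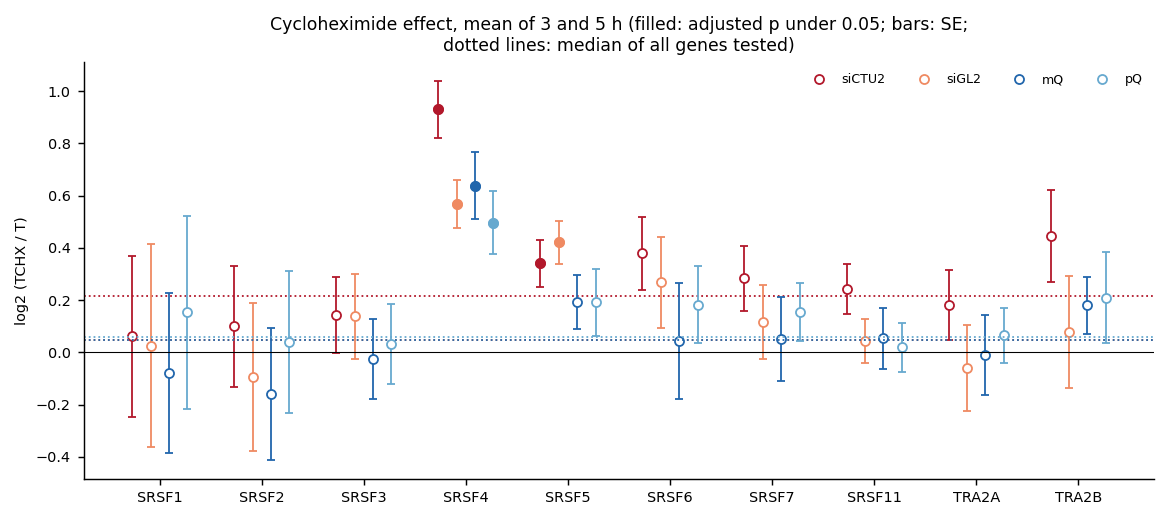
Cycloheximide effect of each member, log2 of TCHX minus T averaged over 3 h and 5 h, with error bars of 1 SE and 1 colour per condition. Filled points passed the adjusted threshold of 0.05, and the dotted lines mark the medians over all genes, between 0.05 and 0.22. SRSF4 lies between 0.50 and 0.93 and was called in all 4 conditions, while under TMM scaling several uncalled members change sign.

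**Figure D4:**
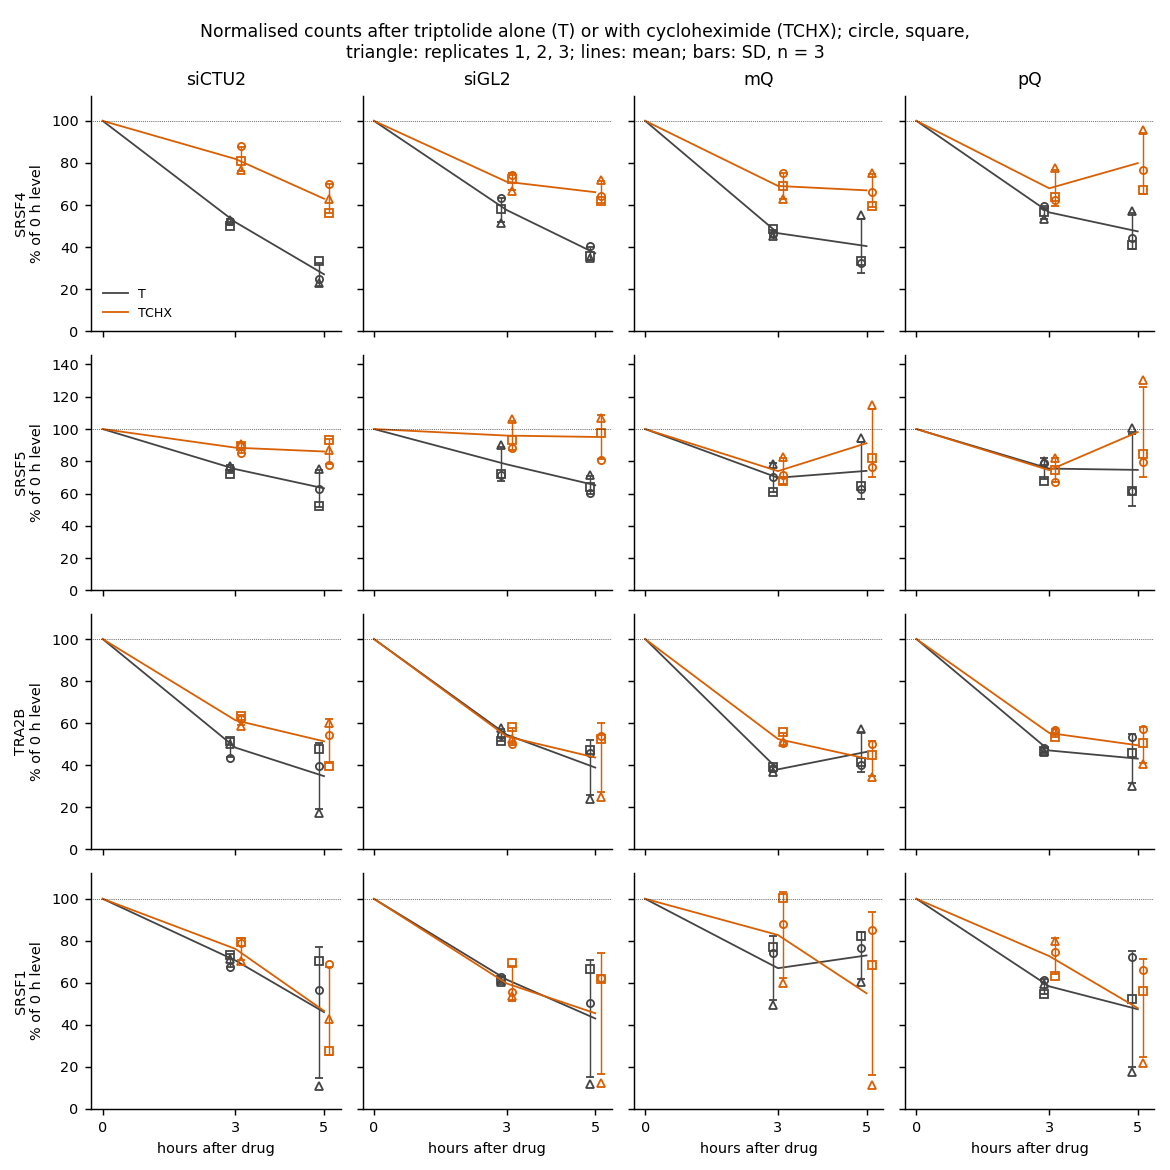
Normalised counts of SRSF4, SRSF5, TRA2B and SRSF1 as a percent of the 0 h level of the replicate (linear axis) against hours after the drug, in the T and TCHX arms of the 4 conditions. Points are libraries, lines join the means and bars give the SD of 3 libraries. The SRSF4 arms lie apart at 5 h in every condition, and SRSF1 has single low libraries at 5 h.

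Genes that act on or with the members were read in the same way. Of 6 kinases and importins of SR proteins, 3 were called higher with cycloheximide in each condition. CLK1, a nuclear kinase that phosphorylates SR proteins and whose own transcript is regulated by splicing, had effects of 2.57, 2.59, 1.81 and 2.25 on the log2 scale in siCTU2, siGL2, mQ and pQ cells, and its relative CLK4 of 1.91, 2.24, 1.57 and 1.81, all of them called. In the T arm the log2 change of CLK1 over time was −3.82, −4.09, −3.16 and −3.99, further down than that of any member. Both kinases thus had larger changes in both directions than SRSF4.

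Of 10 nonsense-mediated decay factors, 7, 7, 2 and 7 were called higher with cycloheximide. SMG9, a partner of the kinase SMG1, had effects of 1.57, 1.5 and 1.65 in siCTU2, siGL2 and pQ cells. SMG8 had effects of 1.63, 0.96 and 1.22 in the same order. In mQ cells the 2 called were SMG6 (0.64) and UPF1 (0.57). Of 11 SR-related proteins, 9, 4, 0 and 2 were called higher, led by SREK1 (0.71) and LUC7L3 (0.64) in siCTU2 cells and by PNN in siGL2 (0.45) and pQ cells (0.44). Of the 18 hnRNP proteins and regulators 2, 1, 0 and 1 were called, with RBM5 at 1.18 (siCTU2), 1.22 (siGL2) and 1.13 (pQ). Of 10 core spliceosome genes 0, 0, 1 and 0 were called, the 1 being PRPF4 (0.72), and of 3 other SR proteins SRSF10 (0.44) was called in siCTU2 cells. Among all genes 21%, 12.1%, 5.12% and 12.3% were called higher, so the 0 for SR-related proteins in mQ cells stood beside a background of 5.12%. That background depended on the mQ T 5 h library with counts for more genes. With it 688 of 13442 genes were called higher in mQ cells, and without it 2882 of 13639. The lists were not counted without it.

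Whether the cycloheximide effect differed between conditions was tested directly. Between siCTU2 and siGL2 cells the members' differences ranged from −0.08 (SRSF5) to 0.37 (TRA2B) on the log2 scale, with a median over all genes of 0.14. Without the siCTU2 TCHX 5 h replicate 3 library that median was 0.107, with 27 genes called higher and 9 lower, against 50 and 4 with it. Without the replicate 3 libraries at 5 h, an alternative chosen after seeing the data, it was 0.012, with 75 higher and 29 lower. With TMM scaling it was −0.006. SRSF4 differed by 0.36 (SE 0.14, unadjusted p = 0.0122, edgeR adjusted p = 0.316). With edgeR 0 of 10 members were called, against 0.379% of 14259 genes, and SRSF4 was the 1 member with an unadjusted p under 0.05. DESeq2 likewise called 0 members and gave the same 1 member at an unadjusted p under 0.05. The larger SRSF4 effect in siCTU2 cells was thus not separated from that in siGL2 cells after adjustment.

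Between mQ and pQ cells the members' differences ranged from −0.23 (SRSF1) to 0.14 (SRSF4). With edgeR 0 of 10 members and 0% of 14177 genes were called, with 0 members and 525 genes at an unadjusted p under 0.05, while DESeq2 called 0 members and 4 genes. The count over all genes depended on single libraries. Without the libraries with counts for more genes, 82 of 14491 genes were called higher and 0 lower. Without the replicate 3 libraries at 5 h, an alternative chosen after seeing the data, 119 of 14477 were higher and 1 lower. In both alternatives 0 members were called.

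The translation-dependent decay (TDD) index gave a related quantity on a linear scale: the TCHX value less the T value in normalised counts, divided by the 0 h count of the replicate. For SRSF4 it was 0.330 ± 0.068 (siCTU2), 0.212 ± 0.044 (siGL2), 0.245 ± 0.065 (mQ) and 0.219 ± 0.083 (pQ, SD, n = 3, mean of 3 h and 5 h). The siCTU2, mQ and pQ values each draw on a library with counts for more genes. The difference between siCTU2 and siGL2 cells was 0.12 (SE 0.05, unadjusted p = 0.0377, adjusted p = 0.595 in the linear model fitted to all genes), where 8.16% of genes had an unadjusted p of at most 0.05. This model counts the 3 h and 5 h values of a replicate as separate values, although they share a 0 h count. A limma fit of the means over both times left 0 members at an unadjusted p under 0.05. Over the members the difference ranged from −0.06 (SRSF5) to 0.13 (TRA2B), and between mQ and pQ cells from −0.12 (SRSF2) to 0.03 (SRSF4), with 4.79% of genes at an unadjusted p of at most 0.05. In both comparisons 0 of 10 members and 0% of genes were called after adjustment. The count over all genes depended on the 0 h count used. With each arm divided by its own 0 h library, 47 of 12371 genes were called higher and 166 lower between mQ and pQ cells. Between siCTU2 and siGL2 cells 4 of 12249 were then higher and 0 lower.

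Replicate 3 stood apart at 5 h for several members, in both arms and in all conditions. SRSF1 in replicate 3 lay below both other replicates in 7 of 8 groups, with a median ratio to their mean of 0.1804 (range 0.156 to 0.938). In 6 groups it stood at 480.0 to 881 normalised counts, against 2229 to 4408 in the other libraries of these groups. In these groups the median log2 ratio over all genes was −0.60 to −0.16, so that many genes were low as well. Each of the 6 values lay between the 1.15th and the 1.95th percentile of the same ratio over all genes. The exceptions were the mQ T 5 h library (2598) and the library labelled siCTU2 TCHX 5 h (2068), both among the 3 libraries with counts for more genes.

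The median ratio of replicate 3 to the other replicates at 5 h was 0.334 for SRSF2, 0.556 for TRA2B, 0.574 for SRSF3, 0.620 for SRSF6, 0.639 for TRA2A and 0.796 for SRSF7. It was 1.02 for SRSF4, 1.18 for SRSF5 and 1.30 for SRSF11. The medians thus formed a gradient, and SRSF4 and SRSF5, the genes called with cycloheximide, were in its upper part. SRSF4 in replicate 3 still lay below both other replicates in 2 of 8 groups. Whether these ratios bear on the calls was not tested. SRSF1 was also low in mQ T 0 h replicate 2 (1411 normalised counts) and siCTU2 TCHX 5 h replicate 2 (1404).

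**Figure D5:**
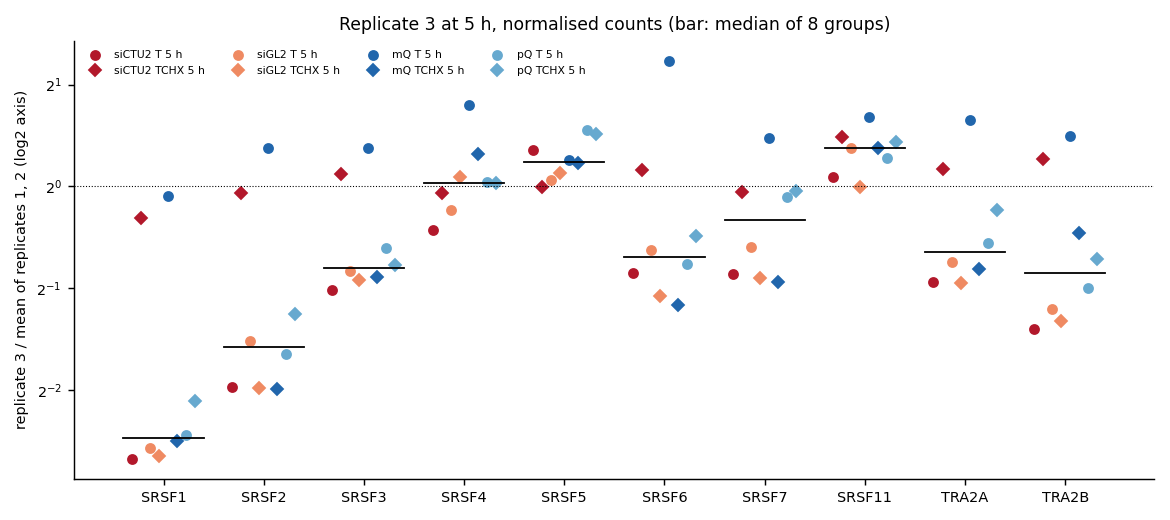
Ratio of the normalised count in replicate 3 to the mean of replicates 1 and 2 at 5 h, on a log axis, for the 10 members, with 1 point for each of the 8 groups. SRSF1 and SRSF2 have the lowest medians, 0.1804 and 0.334, and SRSF4, SRSF5 and SRSF11 lie around or above 1.

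The genes whose level over the 24 groups was most like the mean of the members were KNL1 (r = 0.985), a kinetochore scaffold, TRMT6 (0.984), a subunit of a tRNA methyltransferase, PAFAH1B2 (0.983), EMC8 (0.983) and BMS1 (0.983), a factor of ribosome assembly. This is a description over group means of log2 normalised counts, centred within each experiment, for 9773 genes, and the points share libraries and the fall over time. The members' own r with their mean ranged from 0.838 (SRSF5) to 0.975 (SRSF3).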

How the data were processed

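The authors deposited raw read counts of each gene. By the methods and the submitters' processing notes, forward QuantSeq reads were trimmed with fastp 0.20.1, mapped to GRCh38.p13 with HISAT2 2.2.1 and counted over exons with HTSeq 0.13.5. No molecular identifiers were stated, so counts may hold PCR copies, and reads of overlapping or near-identical genes may be shared. The table was analysed in R 4.3.3 with groups from the sample titles. Levels are CPM. At 0 h, 6 libraries per comparison were fitted with edgeR 4.0.16 (filterByExpr, TMM, quasi-likelihood test, Benjamini-Hochberg over all genes, threshold 0.05). Later times were scaled by the median of ratios over stable genes (CPM above 0.2 at 0 h, at least 1.1 times higher at 3 or 5 h, 0 h above 0.1 times the later value, in every replicate and arm): 197 of 198 in the siRNA and 81 of 82 in the medium experiment. Cycloheximide effects and T-arm changes used 18 libraries per condition, differences between conditions 36. The TDD index was fitted per gene by lm with terms for condition, time and replicate, for genes with a mean 0 h count of at least 10. DESeq2 1.42.0 and limma 3.58.1 were alternatives. Scripts were tested on simulated data. Poison exons came from GENCODE release 44, taking the decay-labelled transcript with the most exons. The members, related lists, markers and tests were chosen with earlier results of these data known. All members were named, and from each related list at most the 2 called genes with the largest change. A gene that this rule would name is not reported here. In the pQ time course all 6 same-numbered pairs of the cycloheximide comparison deviated together (correlation 0.125 to 0.851), and a replicate block left its count at 1. The comparisons within a condition share libraries.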

Additional observations from a re-analysis of the deposited data

How the results depend on the processing

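The fall of SRSF2 in mQ cells at 0 h and the direction of the SRSF4 cycloheximide effect in each condition held under every alternative run, and 0 members were called in the differences between conditions under any of them. Counting error limits little at these depths, since the lowest count of a member in a library was 326, and the p-values reflect the spread between libraries. All changes over time rest on the stable genes: TMM scaling moved the median T-arm change of all genes from between −0.71 and −0.59 to between −0.02 and 0.02, and the median cycloheximide effect in siCTU2 cells from 0.22 to 0.00. Over all members and alternatives 1109 values kept direction and side of the threshold, 80 lost and 36 gained the call, and 117 changed sign. The causes were not tested.

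The number of members called at 0 h was 2 in the TCHX arm of mQ against pQ cells. For the cycloheximide effect it was 1, 0, 0 and 0 at 3 h alone in siCTU2, siGL2, mQ and pQ cells, 0 at 5 h alone in mQ cells, 1 and 1 with TMM scaling in siCTU2 and siGL2 cells, 1 and 0 with stable genes at both times in siGL2 and pQ cells, 1, 1 and 0 with the 0 h difference subtracted in siCTU2, siGL2 and mQ cells, and 3 without the replicate 3 libraries at 5 h in mQ cells. For the T-arm change it was 3, 2, 2 and 2 with TMM scaling. Leaving out 1 replicate at a time gave 1 to 4 (siCTU2 against siGL2) and 3 to 5 (mQ against pQ) at 0 h, 1 to 2, 1 to 3, 0 to 4 and 0 to 1 for the cycloheximide effect, and 7 to 10, 5 to 10, 5 to 9 and 6 to 10 for the T-arm change, in siCTU2, siGL2, mQ and pQ cells.

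Outside the pQ cycloheximide comparison, not every same-numbered pair had a correlation over 0.1 (range −0.318 to 0.838), so the edgeR tests did not pair the samples by number. The cut matters, since the cycloheximide correlations were all positive in siGL2 (lowest 0.069) and mQ cells (lowest 0.051). The counts of pairs, the shares of the 0 h level and the TDD index did use the numbers. With the replicate block 4 and 5 members were called at 0 h, 3, 2, 1 and 1 for the cycloheximide effect, 10, 10, 8 and 10 for the T-arm change and 0 for both differences between conditions, and without the block in the TDD model 0 and 0.

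The values that changed sign, on the log2 scale except for the TDD index, were these. With TMM scaling the cycloheximide effect was −0.10 (SRSF1), −0.072 (SRSF2), −0.062 (SRSF3), −0.015 (SRSF11) and −0.019 (TRA2A) in siCTU2 cells, −0.062 (SRSF1), −0.044 (SRSF11) and −0.009 (TRA2B) in siGL2 cells, −0.021 (SRSF6), −0.033 (SRSF7) and −0.003 (SRSF11) in mQ cells, −0.021 (SRSF2), −0.052 (SRSF3), −0.081 (SRSF11) and −0.018 (TRA2A) in pQ cells. The T-arm change was 0.037 (SRSF3) and 0.29 (SRSF5) in siCTU2 cells, 0.082 (SRSF5) and 0.12 (SRSF11) in siGL2 cells, 0.56 (SRSF1), 0.32 (SRSF2), 0.22 (SRSF3) and 0.14 (SRSF5) in mQ cells, 0.057 (SRSF3), 0.28 (SRSF5) and 0.13 (SRSF11) in pQ cells there. The TDD index difference was 0.060 (SRSF5) for mQ against pQ there. Only 8 genes in the siRNA and 3 in the medium experiment passed as stable at both times. With stable genes that passed at both times the cycloheximide effect was −0.018 (SRSF1) and −0.002 (SRSF11) in siGL2 cells, 0.004 (TRA2A) in mQ cells, −0.15 (SRSF1), −0.27 (SRSF2), −0.29 (SRSF3), −0.15 (SRSF5), −0.15 (SRSF6), −0.18 (SRSF7), −0.33 (SRSF11), −0.26 (TRA2A) and −0.11 (TRA2B) in pQ cells. The difference of the cycloheximide effect was 0.055 (SRSF5) for siCTU2 against siGL2, 0.047 (SRSF1) for mQ against pQ there. The TDD index difference was 0.011 (SRSF5) for siCTU2 against siGL2, 0.021 (SRSF2) and 0.17 (SRSF5) for mQ against pQ there. At 3 h alone the cycloheximide effect was −0.043 (SRSF1), 0.009 (TRA2A) and −0.018 (TRA2B) in siGL2 cells, 0.30 (SRSF1), 0.18 (SRSF2), 0.091 (SRSF3) and 0.19 (TRA2A) in mQ cells, −0.043 (SRSF3) and −0.012 (SRSF5) in pQ cells. At 5 h alone the cycloheximide effect was −0.014 (SRSF11) in siGL2 cells, −0.11 (SRSF6), −0.14 (SRSF7) and −0.10 (TRA2B) in mQ cells. The difference of the cycloheximide effect was −0.035 (SRSF4) and −0.094 (SRSF5) for mQ against pQ there. Without the replicate 3 libraries at 5 h, an alternative chosen after seeing the data, the cycloheximide effect was −0.13 (SRSF1), −0.10 (SRSF2) and −0.013 (SRSF3) in siCTU2 cells, 0.14 (SRSF1), 0.12 (SRSF2), 0.16 (SRSF3) and 0.23 (TRA2A) in mQ cells, −0.011 (SRSF11) in pQ cells. The difference of the cycloheximide effect was −0.002 (SRSF5) for mQ against pQ there. The TDD index difference was 0.050 (SRSF2) and 0.011 (SRSF5) for mQ against pQ there. With the difference between the arms at 0 h subtracted the cycloheximide effect was −0.046 (SRSF1) in siGL2 cells, −0.017 (SRSF6), −0.13 (SRSF7) and 0.037 (TRA2A) in mQ cells. Without the 3 libraries with counts for more genes the cycloheximide effect was 0.044 (SRSF3) and 0.12 (TRA2A) in mQ cells. In the TCHX libraries at 0 h the difference at 0 h was −0.23 (SRSF1), 0.15 (SRSF5), 0.019 (SRSF11) and −0.012 (TRA2B) for siCTU2 against siGL2, −0.15 (SRSF11) and 0.022 (TRA2B) for mQ against pQ, and without pQ TCHX 0 h replicate 3 it was −0.053 (SRSF11) for mQ against pQ. With each arm divided by its own 0 h library the TDD index difference was −0.15 (SRSF4) for mQ against pQ. With a replicate block the cycloheximide effect was 0.000 (TRA2A) in mQ cells. With DESeq2, with its size factors in edgeR and with no filter on low counts the difference at 0 h was −0.004 (TRA2A) for mQ against pQ.

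Leaving out 1 replicate at a time, the difference at 0 h ranged from −0.011 to 0.072 (TRA2B) for siCTU2 against siGL2, −0.16 to 0.10 (SRSF5) and −0.053 to 0.052 (TRA2A) for mQ against pQ. The cycloheximide effect ranged from −0.10 to 0.40 (SRSF1), −0.089 to 0.34 (SRSF2) and −0.001 to 0.30 (SRSF3) in siCTU2 cells, −0.027 to 0.050 (SRSF1) and −0.013 to 0.12 (SRSF11) in siGL2 cells, −0.18 to 0.47 (SRSF6), −0.076 to 0.28 (SRSF7), −0.011 to 0.14 (SRSF11), −0.31 to 0.14 (SRSF1), −0.33 to 0.11 (SRSF2), −0.14 to 0.17 (SRSF3) and −0.14 to 0.24 (TRA2A) in mQ cells, −0.003 to 0.073 (SRSF2) and −0.001 to 0.041 (SRSF11) in pQ cells. The T-arm change ranged from −0.46 to 0.30 (SRSF1) in mQ cells. The difference of the cycloheximide effect ranged from −0.033 to 0.027 (SRSF5) and −0.53 to 0.025 (SRSF1) for mQ against pQ. The TDD index difference ranged from −0.031 to 0.10 (SRSF4), −0.030 to 0.008 (SRSF5) and −0.21 to 0.055 (SRSF2) for mQ against pQ.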
